A study of Brassica rapa subsp. pekinensis with 8 samples.

Results

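GIGANTEA and the ZTL, FKF1 and LKP2 blue-light receptors were followed at the RNA level in shoots of Chinese cabbage (Brassica rapa). The genes were chosen by their Arabidopsis locus in the deposited annotation, whatever their values. Of 38008 genes in the table, 4 carried one of these loci. They are 1 GIGANTEA gene, BrGI (Bra024536, locus AT1G22770), and 3 genes annotated to LKP2 (locus AT2G18915), named here BrLKP2 with their identifiers Bra038832, Bra038831 and Bra038830. The FKF1 locus AT1G68050 and the ZTL locus AT5G57360 matched 0 rows each, and genes of these loci are not analysed here. The study's supplement uses the name FKF1 for Bra038832, whereas the deposited annotation gives it the LKP2 locus; the annotation's locus is used throughout.

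The samples came from 2 inbred lines, line 4004, which bolts early, and line 50, which bolts late, with no transgene or mutation named for either. Day 35 plants had spent 35 days of vernalization, a long cold treatment that permits flowering, and day 0 plants were young seedlings without it. The groups were line 4004 at day 35 (1 library, numbered 3), line 4004 at day 0 (1 library, numbered 3), line 50 at day 35 (3 libraries) and line 50 at day 0 (3 libraries). Other line 4004 libraries of the study are not analysed here. Each library pooled the shoots of several plants, and the labels give the tissue as leaf. Day 35 plants also had fewer hours of light a day in the cold room and were older, so cold, day length and age cannot be told apart. The methods state that both days were sampled at the same point of the light and dark cycle. The day lengths differed, so that point need not lie equally far from both dawn and dusk. The part of clock phase in the day differences below was not tested.

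In Arabidopsis, GIGANTEA is a large clock-controlled protein whose RNA cycles over the day. ZTL, FKF1 and LKP2 are F-box proteins that carry a light-sensing LOV domain, a part of the PAS group, and Kelch repeats that bind other proteins. Under blue light they join GIGANTEA. As the target-binding part of an SCF ubiquitin ligase, they mark clock proteins such as TOC1 and PRR5 or the CDF repressors of CONSTANS for degradation. Through CONSTANS and FT, this pathway links day length to flowering.

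All 3 BrLKP2 genes carried the families that define these receptors in the deposited annotation. Each was listed with the PAS fold, an F-box and a Kelch family, and Bra038832 with a second Kelch family. The 3 genes have consecutive identifiers. Bra038829, the identifier just before them, is annotated to AT2G18900, and Bra038834 and Bra038835, shortly after them, to AT2G18950 and AT2G18960, so that the identifiers run through neighbouring Arabidopsis loci on both sides of the LKP2 locus. Bra038833, which lies between, is annotated to AT1G49150. Genes of 1 locus can share reads. The sequences of the 3 genes were not compared here, and the sources used here do not say how reads matching several genes were counted, so the split between the 3 genes is uncertain.

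For BrGI, the study used the pair of qPCR primers below, shown because they identify the BrGI transcript.
BrGI forward: gctttcagaggctaaggctgtatc
BrGI reverse: gatcctcgagtagcaatggtaggt
Each primer has 24 bases, of which 12 are G or C.

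Total counts ran between 18.3 and 27.1 M per library. Both replicate 3 libraries of line 50 stood apart: their totals were the lowest, and their 10 most abundant genes took 15% of the counts at day 35 and 12.8% at day 0, against 6.65% to 9.59% in the other libraries. Of the green shoot markers of the labelled tissue, all 9 genes were read in every library. Their summed normalized read counts were 398867 in line 4004 at day 35 and 276631 at day 0, between 319519 and 622283 in line 50 at day 35 and between 372332 and 741371 at day 0. Of 6 shoot meristem marker genes, 3 passed the filter on low counts, and STM and KNAT1, both class I KNOX genes of the meristem, were called higher at day 35 in line 50. STM (Bra027050) had raw counts of 25 in line 4004 at day 35 against 2 at day 0, and of 76, 56 and 39 in line 50 at day 35 against 1, 2 and 1 at day 0. A raw count of 1 is the lowest of the table and was read as no reads. KNAT1 (Bra000638) had raw counts of 27 in line 4004 at day 35 against 2 at day 0, and of 104, 73 and 68 in line 50 at day 35 against 1 in each library at day 0. Both genes were thus at or near no reads in every day 0 library. CLV1 (Bra015812), a receptor kinase of the meristem and the third gene that passed, was not: it had normalized read counts of 530 and 470 in line 4004 at day 35 and day 0, and of 478, 564 and 1416 in line 50 at day 35 against 712, 875 and 888 at day 0, a log2 fold change of 0.04 ± 0.48 (adjusted p 0.979 in edgeR). CLV1 made up most of the summed meristem markers. The part of meristem RNA in the day differences below was not tested. The 3 WUS genes had no reads in line 4004 and at day 0 in line 50. The summed meristem markers were 583 and 475 in line 4004 at day 35 and day 0, and 621 to 1603 and 717 to 898 in line 50 at day 35 and day 0. Of 6 root marker genes, 2 passed the filter and neither was called by edgeR, and their sums were 256 and 155 in line 4004 at day 35 and day 0, and 358 to 589 and 311 to 431 in line 50 at day 35 and day 0. In these bulk samples, fewer cells of a type and less RNA per cell cannot be told apart.

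The first question was how the genes changed after vernalization. All 4 were more abundant at day 35 than at day 0, in line 4004 and in every pair of line 50 libraries. Levels below are normalized read counts, the authors' raw counts divided by a single factor per library. They are not divided by gene length, so they compare libraries and not genes.

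BrGI reached a normalized read count of 6278 in line 4004 at day 35, against 2883 at day 0. The exact Poisson intervals (95%), which cover counting error only, were 6126 to 6433 at day 35 and 2779 to 2990 at day 0. In line 50, the 3 libraries held 4643, 4773 and 5253 at day 35, against 2409, 2516 and 3146 at day 0. The groups did not overlap, and replicate 3 was the highest of each. BrGI thus averaged 4890 ± 321 at day 35 and 2690 ± 398 at day 0 in line 50 (SD, n = 3 each). The 3 pairs of equal replicate number differed 1.93-fold, 1.90-fold and 1.67-fold, and line 4004 differed 2.18-fold.

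Bra038832, the most read of the BrLKP2 genes, showed the widest difference between the days. Its normalized read count was 3097 in line 4004 at day 35, against 1203 at day 0, a ratio of 2.57. The counting intervals of these libraries, 2990 to 3207 at day 35 and 1136 to 1273 at day 0, lay far apart. Line 50 held 1980, 1756 and 2385 at day 35, against 767, 852 and 1115 at day 0. Every day 35 library lay above every day 0 library. The means were 2040 ± 319 at day 35 and 911 ± 181 at day 0 (SD, n = 3 each), and the 3 pairs differed 2.58-fold, 2.06-fold and 2.14-fold.

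Bra038831 had a normalized read count of 1221 in line 4004 at day 35, against 779 at day 0, a ratio of 1.57. Line 50 held 912, 860 and 794 at day 35, against 496, 475 and 559 at day 0. The groups were again apart, but here replicate 3 was the lowest at day 35 and the highest at day 0. The means were 855 ± 59.1 at day 35 and 510.0 ± 43.7 at day 0 (SD, n = 3 each).

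Bra038830 showed the narrowest difference. It had a normalized read count of 718 in line 4004 at day 35, against 570 at day 0, a ratio of 1.26. Their counting intervals were 667 to 772 at day 35 and 524 to 619 at day 0. Line 50 held 539, 508 and 546 at day 35, against 379, 329 and 385 at day 0. The means were 531 ± 20.2 at day 35 and 364 ± 30.7 at day 0 (SD, n = 3 each), with no overlap.

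**Figure D1:**
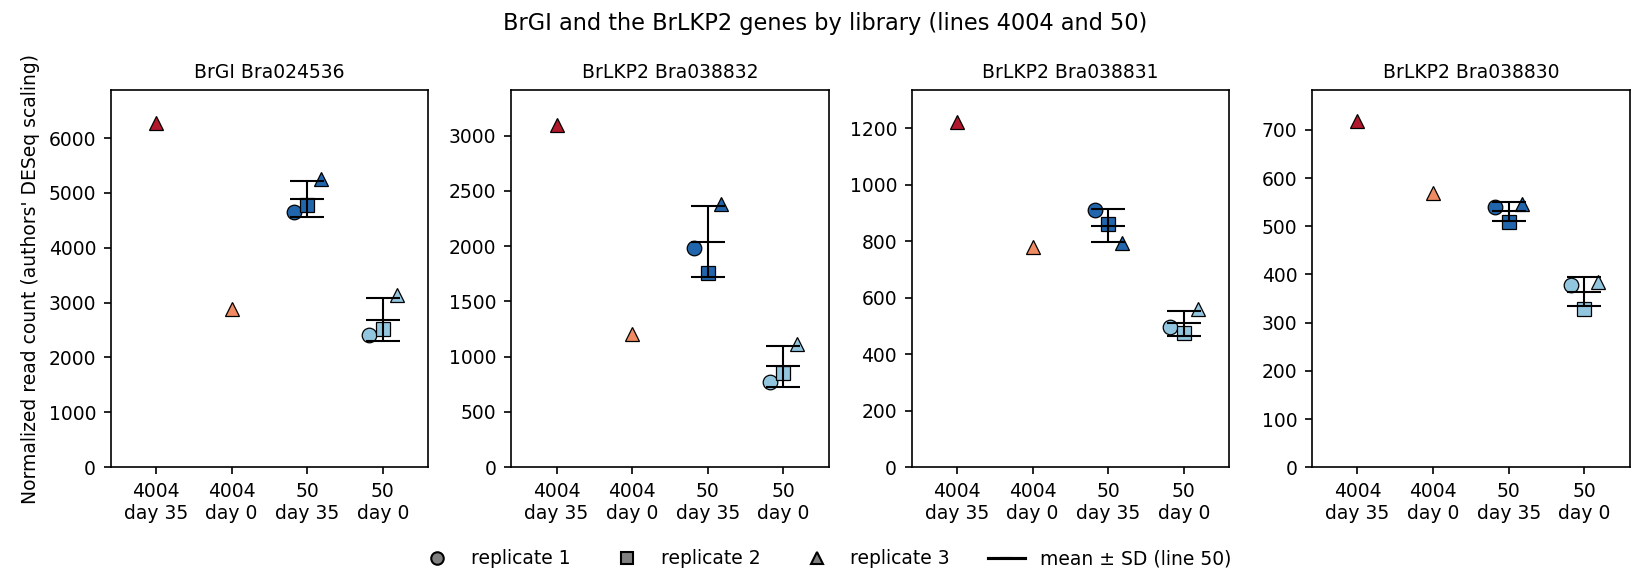
Normalized read counts (vertical axis, from 0, a separate scale for each gene) of BrGI and the BrLKP2 genes in each library of lines 4004 and 50 at day 35 and day 0. Symbols give the replicate number and bars the mean ± SD of the 3 line 50 libraries. In every panel the day 35 libraries of a line sit above its day 0 libraries, with the widest gap for Bra038832.

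All 4 genes thus had every line 50 day 35 library above every day 0 library, as had 12.4% of all 31191 genes tested. Whether the difference passed a test depended on the tool and on how the replicates were treated. The counts were tested with edgeR's quasi-likelihood test, with p-values adjusted after Benjamini-Hochberg, and the word called stands for an adjusted p under 0.05 together with a change of at least 2-fold. Without pairing the replicates, 0 of 4 genes were called, beside 3.92% of all genes called and 2.23% called higher, although all 4 had an unadjusted p under 0.05, as had 10.5% of all genes in the higher direction. DESeq2 called 1 of 4, Bra038832, beside 5.08% of all genes called higher. The replicate numbers were then taken as pairs, although the correlations between libraries set only replicate 3 apart. With the replicate number as a block, which leaves 2 residual degrees of freedom, 1 of 4 was called, again Bra038832, beside 7.94% of all genes called higher. In that blocked fit all 4 had an adjusted p under 0.05 with no minimum fold, beside 11.8% of all genes in the higher direction.

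For BrGI the edgeR log2 fold change in line 50 was 0.87 ± 0.27 (SE, n = 3 each), with a 95% interval of 0.23 to 1.51 and an adjusted p of 0.133. The blocked fit gave 0.88 with an adjusted p of 0.0151. The adjusted p was 0.0354 in DESeq2. In the unblocked edgeR fit it was 0.000766 without both replicate 3 libraries, where edgeR called 6352 genes in all. It was 0.92 without both replicate 1 libraries and 0.892 without both replicate 2 libraries, where edgeR called 0 genes in all. BrGI stayed under the 2-fold minimum in each of these fits.

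For Bra038832 the edgeR log2 fold change was 1.17 ± 0.30 (SE, n = 3 each), with a 95% interval of 0.47 to 1.87 and an adjusted p of 0.0807. The blocked fit gave 1.18 with an adjusted p of 0.00679. Leaving out both replicate 3 libraries, the unblocked fit gave 1.23 with an adjusted p of 0.000765, and this gene was then called as well. In that setting edgeR called 6352 of 31089 genes tested. Without both replicate 1 libraries the adjusted p was 0.739, and without both replicate 2 libraries 0.661.

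The other BrLKP2 genes had smaller fold changes in edgeR. For Bra038831 the log2 fold change was 0.75 ± 0.21 with an adjusted p of 0.109, and 0.0194 under the block. For Bra038830 it was 0.56 ± 0.22 with an adjusted p of 0.217, and 0.0351 under the block. The median of the 4 members was 0.81, beside 0.01 over all genes tested. Among all genes, the fold changes of BrGI, Bra038832, Bra038831 and Bra038830 stood at percentiles 87.9, 91.8, 85.6 and 80.0.

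In line 4004, with 1 library a day, the days were compared without a test and the ratios have no replicate check. BrGI and Bra038832 were at least 2-fold higher at day 35, 2 of 4 genes beside 8.53% of all genes. Scaled to library totals alone, BrGI was just under 2-fold with a ratio of 1.97, and 1 of 4 genes remained, beside 6.25%.

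**Figure D2:**
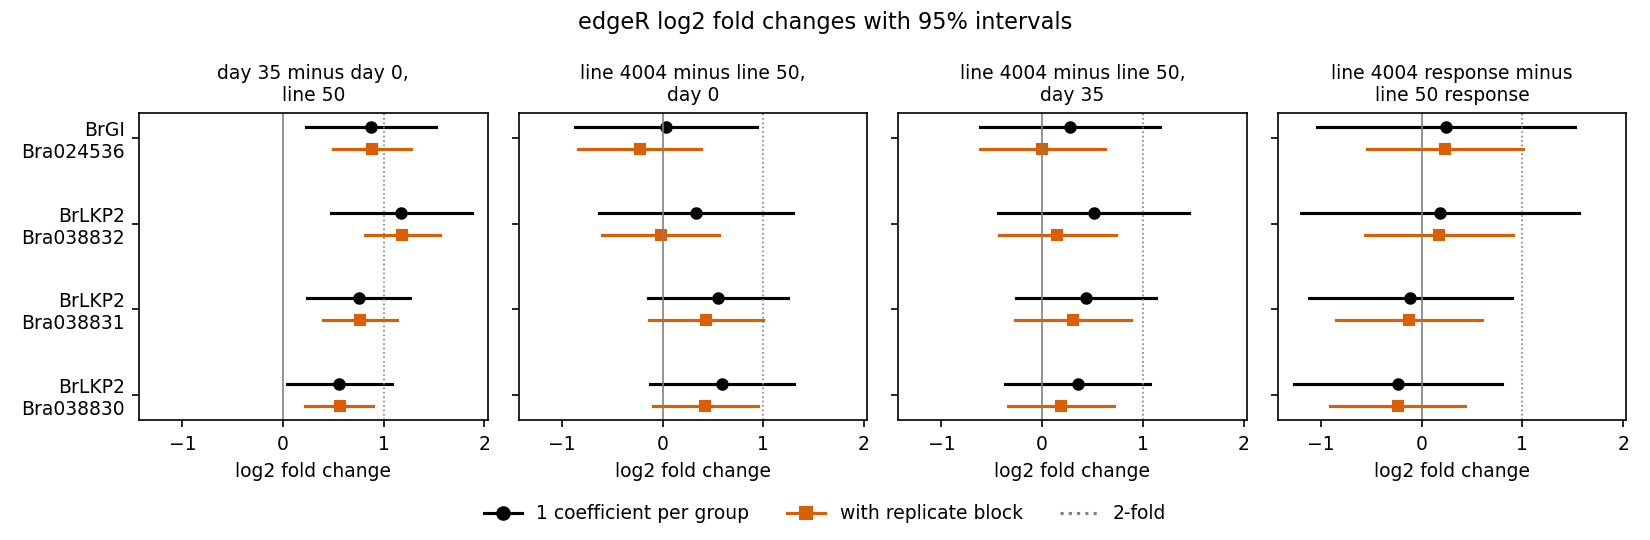
Log2 fold changes from edgeR (horizontal axis) with 95% intervals for BrGI and the BrLKP2 genes in 4 comparisons, with 1 coefficient per group (black) and with the replicate number as a block (orange). Only the comparison of day 35 with day 0 in line 50 has intervals clear of 0, and those of line 4004 with line 50 all include it.

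The 3 BrLKP2 genes were also summed, since the sum does not depend on the split between them if each read was counted once, which the sources used here do not state. The summed normalized read count was 5036 in line 4004 at day 35, against 2552 at day 0. The line 50 sums were 3431, 3124 and 3725 at day 35, against 1642, 1656 and 2059 at day 0. The ratio of day 35 to day 0 was 1.97 in line 4004 and 1.92 in line 50. Replicate 3 was the highest of each line 50 group on this scale, but as CPM of the library total it was the lowest at day 35, with 118 against 162 and 142 in replicates 1 and 2. On that scale the ratios were 1.78 in line 4004 and 2.0 in line 50.

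The BrLKP2 genes did not share the sum in constant proportion. Bra038832 took 61.5% of the summed reads in line 4004 at day 35 (Wilson 95% interval 60.2% to 62.8%), against 47.1% at day 0 (45.2% to 49.1%). The line 50 libraries gave it 57.7%, 56.2% and 64.1% at day 35, against 46.7%, 51.5% and 54.2% at day 0. Bra038830 took 14.2% in line 4004 at day 35, against 22.3% at day 0, and in line 50 it took 15.7%, 16.3% and 14.6% at day 35, against 23.1%, 19.8% and 18.6% at day 0. The share of Bra038832 was thus higher, and that of Bra038830 lower, in every day 35 library than in every day 0 library of the same line.

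Ratios between genes within a library, in which any library scaling cancels, were then compared. This comparison was chosen after the values were seen. The ratio of Bra038832 to Bra038830 was 4.31 in line 4004 at day 35, against 2.11 at day 0. In line 50 it was 3.67, 3.45 and 4.37 at day 35, against 2.02, 2.59 and 2.90 at day 0, a mean log2 difference of 0.62. The ratio of Bra038832 to Bra038831 was 2.54 in line 4004 at day 35, against 1.54 at day 0, and in line 50 it was 2.17, 2.04 and 3.0 at day 35, against 1.54, 1.79 and 1.99 at day 0. Both ratios were higher at day 35 with no overlap in line 50.

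The ratio of BrGI to Bra038832 moved the other way. It was 2.03 in line 4004 at day 35, against 2.40 at day 0, and in line 50 it was 2.35, 2.72 and 2.21 at day 35, against 3.14, 2.95 and 2.82 at day 0. Of 6 pairs of genes, 5 had no overlap between the days in line 50, and the exact two-sided permutation p of each was 0.1 (n = 3 each), the smallest this design allows (0.12 after Benjamini-Hochberg adjustment over the 6 pairs). This test does not pair the replicates, and the 6 ratios come from only 4 genes. Of all pairs of genes whose normalized read counts averaged 500 or more, 28.0% had no overlap between the days in either direction. The ratio of BrGI to Bra038831 overlapped, with an exact permutation p of 0.5 (adjusted 0.5).

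**Figure D3:**
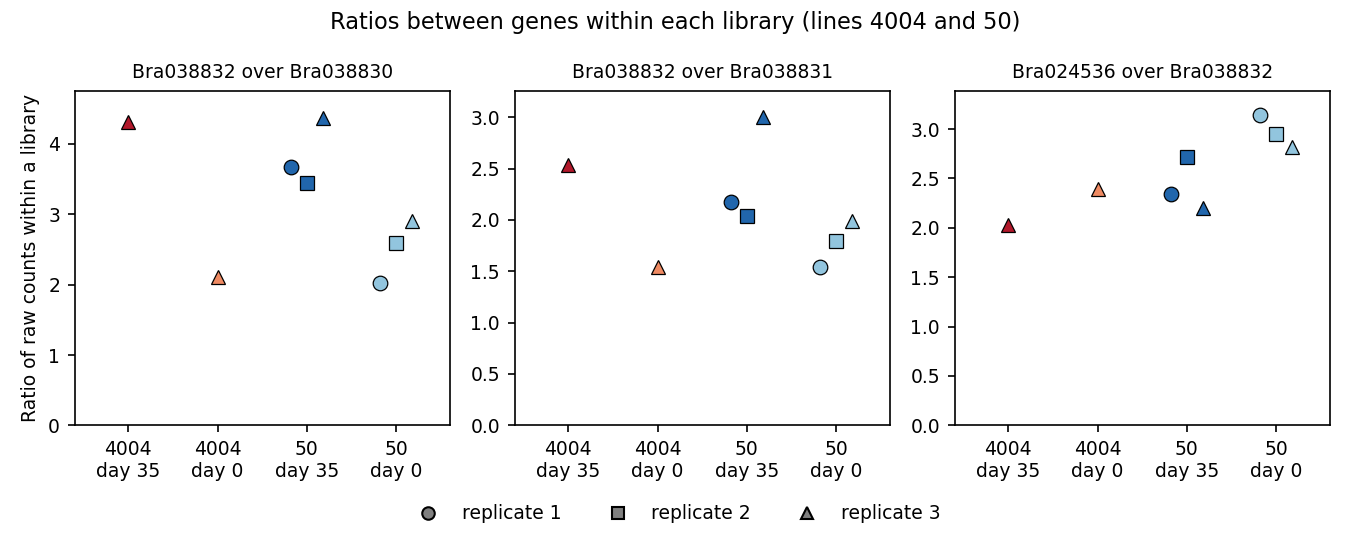
Ratios of raw counts within a library (vertical axis, from 0) for 3 pairs of genes, in lines 4004 and 50 at day 35 and day 0. Each point is a library and symbols give the replicate number. The ratios of Bra038832 to both other BrLKP2 genes are higher at day 35, and the ratio of BrGI to Bra038832 is lower.

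The second question was whether the early-bolting and the late-bolting line differed. The single line 4004 library of each day was assumed to vary like a line 50 replicate. At day 0, BrGI stood at 2883 in line 4004, inside the line 50 range of 2409 to 3146. The 3 BrLKP2 genes stood above every line 50 library at day 0, with normalized read counts of 1203 against 767 to 1115 for Bra038832, 779 against 475 to 559 for Bra038831 and 570 against 329 to 385 for Bra038830. That is 3 of 4 genes, beside 33.0% of all genes tested. At day 35, all 4 line 4004 values lay above every line 50 library, beside 26.2% of all genes. BrGI had 6278 in line 4004 against at most 5253 in line 50, and Bra038832 had 3097 against at most 2385. Scaled to library totals, 4 of 4 genes lay above at day 0, beside 43.6%, a scaling that moved the median of all genes in this comparison to 0.19 on the log2 scale, against -0.04 with TMM.

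None of these line differences was called with all libraries in the fit. At day 0, edgeR called 0 of 4 genes, beside 1.49% of all genes called and 1.2% called higher, with 0 of 4 at an unadjusted p under 0.05. DESeq2 called 0 of 4, beside 1564 of all 31191 genes. Counts of 0 of 4 beside shares this low do not show that the lines are alike. The log2 fold change of line 4004 over line 50 was 0.03 ± 0.38 for BrGI (95% interval -0.87 to 0.94). It was 0.33 ± 0.41 for Bra038832 (-0.63 to 1.29), and both turned negative under the replicate block, at -0.23 and -0.02. Both line 4004 libraries are numbered 3, so the block sets them against replicate 3 of line 50. That a number means the same in both lines is an assumption. The unblocked log2 fold change was 0.55 ± 0.29 for Bra038831 (-0.14 to 1.24) and 0.59 ± 0.30 for Bra038830 (-0.12 to 1.30). The adjusted p-values lay between 0.475 and 0.984. Without both replicate 3 libraries of line 50, the log2 fold changes were 0.22 for BrGI, 0.565 for Bra038832, 0.674 for Bra038831 and 0.682 for Bra038830. That setting compares a line 4004 library numbered 3 with line 50 libraries numbered 1 and 2. Line and replicate number cannot be told apart there.

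At day 35, edgeR again called 0 of 4 genes, beside 0.446% of all genes, with 0 of 4 at an unadjusted p under 0.05. DESeq2 called 0 of 4, beside 433 of all 31191 genes. The log2 fold changes of line 4004 over line 50 were 0.28 ± 0.38 for BrGI (95% interval -0.61 to 1.17), 0.51 ± 0.40 for Bra038832 (-0.44 to 1.46), 0.44 ± 0.29 for Bra038831 and 0.36 ± 0.30 for Bra038830 (-0.36 to 1.07), and the adjusted p of each was 1.0. A 2-fold difference is inside the interval of each of the 4 genes, and so is 0. Without both replicate 3 libraries of line 50, each log2 fold change was again under 1. As at day 0, line and replicate number cannot be told apart in that setting.

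The third question was whether the response to vernalization differed between the lines. The difference of the log2 responses, line 4004 minus line 50, was 0.24 ± 0.54 for BrGI (95% interval -1.04 to 1.52), 0.18 ± 0.58 for Bra038832 (-1.20 to 1.56), -0.11 ± 0.43 for Bra038831 (-1.12 to 0.90) and -0.23 ± 0.44 for Bra038830 (-1.27 to 0.80). No member was called (0 of 4, beside 0.0% of all genes), with 0 of 4 at an unadjusted p under 0.05 and 0 of 4 called by DESeq2. With 0.0% of all genes called by edgeR, these counts show nothing particular to the 4 genes. Each interval includes 0, and each allows a response in line 4004 less than 0.5 times that in line 50.

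The targets of the receptors were examined next, as a list of Arabidopsis loci with 15 Brassica rapa genes, all tested. In line 50, edgeR called 2 of them higher at day 35 and 0 lower, with a median log2 fold change of 0.76, beside 2.23% of all genes called higher and 1.69% called lower. The blocked fit called 5 higher and 3 lower, beside 7.94% and 7.69% of all genes, and DESeq2 6 higher and 0 lower, beside 5.08% and 4.4%. TOC1 (Bra012964), a clock repressor degraded through ZTL in Arabidopsis, had normalized read counts of 4472 in line 4004 at day 35, against 861 at day 0, and of 4191, 4165 and 5860 in line 50 at day 35, against 1489, 1451 and 1469 at day 0. Its log2 fold change in line 50 was 1.72 ± 0.28, with an adjusted p of 0.0278 in edgeR. CDF2 (Bra025655), a repressor of CONSTANS, had 152 and 133 in line 4004 at day 35 and day 0. In line 50 it had 205, 156 and 278 at day 35, against 38, 37 and 66 at day 0, a log2 fold change of 2.19 ± 0.42 with an adjusted p of 0.0413 in edgeR. Its 2 line 4004 values thus lay close together, while the line 50 groups were far apart, and the difference between the line responses was not called (-2.01 ± 0.82, adjusted p 1.0 in edgeR). Both calls were lost without most single libraries of line 50, and when both libraries of replicate 1 or of replicate 2 were left out, with adjusted p-values of 0.442 and 0.444 for TOC1 and 0.505 and 0.416 for CDF2.

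The other targets did not pass in the unpaired edgeR fit. Among them were a less read TOC1 gene (Bra035933) and a less read CDF2 gene (Bra028437). In line 50 their log2 fold changes were 0.99 ± 0.23 and 1.28 ± 0.31. The adjusted p-values in edgeR were 0.0693 and 0.0746 without pairing, and 0.0145 and 0.0181 under the block. PRR5 (Bra009768), another clock repressor, had a log2 fold change of 0.68 ± 0.27, CDF1 (Bra029261) of 0.98 ± 0.29, CDF3 (Bra018141) of 0.39 ± 0.42 and CDF5 (Bra004396) of 0.76 ± 0.27. The 3 genes of CHE, a repressor of CCA1, were the only targets with negative log2 fold changes in line 50. Bra005984, the most read of them, had 525 in line 4004 at day 35 against 1665 at day 0, and 241, 330 and 1032 in line 50 at day 35 against 787, 748 and 1846 at day 0. Each pair was lower at day 35 but the groups overlapped through replicate 3, and the log2 fold change was -1.05 ± 0.69 without pairing and -1.22 with the block (adjusted p 0.466 and 0.0125 in edgeR).

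Partners of the receptors in the ubiquitin ligase, and the chaperones and deubiquitinases that act on them, showed no called gene. Of their 10 loci, 7 had a gene in the table, and of 29 genes 25 were tested. In line 50, edgeR called 0 of 25, beside 3.92% of all genes, with 0 at an unadjusted p under 0.05. DESeq2 called 0 as well, beside 5.08% of all genes called higher and 4.4% called lower. The median log2 fold change was 0.30. The most read genes of the scaffold CUL1 (Bra036257), the ring protein RBX1 (Bra002312), the chaperone HSP90.4 (Bra028952) and the deubiquitinases UBP12 (Bra005900) and UBP13 (Bra038685) had log2 fold changes of 0.23 ± 0.28, 0.48 ± 0.36, 0.30 ± 0.29, 0.40 ± 0.50 and 0.46 ± 0.52. The adaptor ASK1 (Bra003735) had 0.13 ± 0.69 and followed the replicate number, with normalized read counts of 3379, 3643 and 11207 in line 50 at day 35, against 3783, 3361 and 9743 at day 0. The 1 gene of ASK2 (Bra012214) had raw counts of at most 2 and was not tested.

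The clock regulators of GIGANTEA held the largest differences of the 4 lists in line 50. Of 10 genes, edgeR called 3 higher and 0 lower at day 35, with a median of 1.02, beside 2.23% of all genes called higher. The block called 5 higher, beside 7.94% of all genes, and DESeq2 4, beside 5.08%. The 3 called by the unpaired edgeR fit were the morning gene CCA1 and both LHY genes, MYB factors that repress GIGANTEA in Arabidopsis. LHY (Bra033291) had normalized read counts of 1459 in line 4004 at day 35, against 50 at day 0, and of 1353, 1250 and 831 in line 50 at day 35, against 26, 39 and 14 at day 0, a log2 fold change of 5.39 ± 0.40 (adjusted p 0.00377 in edgeR). The other LHY gene (Bra030496) had 5.54 ± 0.40 with the same adjusted p. CCA1 (Bra004503) had 1460 in line 4004 at day 35, against 400 at day 0, and 1308, 1203 and 962 in line 50 at day 35, against 97, 96 and 116 at day 0. Its log2 fold change was 3.49 ± 0.25 (adjusted p 0.00377 in edgeR).

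All 3 of these day calls were lost without replicate 1 or without replicate 2 of line 50, settings in which edgeR called 0 genes in all, with adjusted p-values of 0.0817 to 0.167. CCA1 was also called higher in line 4004 than in line 50 at day 0, at 1.90 ± 0.30 (adjusted p 0.0368 in edgeR), a call lost with library totals as the scale (adjusted p 0.0554) and without replicate 1 or replicate 2 of line 50 (0.491 and 0.51). The evening complex genes ELF3 (Bra034284) and ELF4 (Bra000165), which act together to repress evening targets, had -0.06 ± 0.28 and 0.08 ± 0.61. LUX (Bra033809), the DNA-binding part of that complex, had 1.40 ± 0.50 without pairing and was called under the block (1.33, adjusted p 0.00533). A less read LUX gene (Bra018204) had a larger change, 2.83 ± 0.66 without pairing (adjusted p 0.0651 in edgeR, 0.00205 under the block).

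Downstream of the receptors, the flowering genes were read at low counts, and 3 of 4 were tested. CONSTANS (CO, Bra008669), the day length regulator of FT, had normalized read counts of 57 and 28 in line 4004 at day 35 and day 0. In line 50 it had 40, 41 and 74 at day 35, against 14, 18 and 38 at day 0, a log2 fold change of 1.16 ± 0.54 (adjusted p 0.293 in edgeR, 0.0199 under the block). In line 50, edgeR called 0 of 3 flowering genes, beside 3.92% of all genes, with 0 at an unadjusted p under 0.05. DESeq2 called 0, beside 5.08% of all genes called higher and 4.4% called lower. FT (Bra022475), the mobile flowering signal, had raw counts of 33 in line 4004 at day 35, against 3, 4 and 2 in line 50 at day 35. Its relative TSF (Bra004117) had 39 in line 4004, against 3, 4 and 2 in line 50. At day 0, the raw counts in line 4004 were 1 for FT and 2 for TSF, and those of line 50 were 2, 1 and 1 for both. The 2 genes held equal raw counts in all line 50 libraries. Whether they share reads was not tested, so FT and TSF may not be 2 separate results.

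FT and TSF were called higher in line 4004 at day 35 by edgeR, with log2 fold changes of 3.27 ± 0.46 and 3.51 ± 0.46 (adjusted p 0.0455 and 0.0342), beside 0.353% of all genes called higher. DESeq2 called neither (adjusted p 0.138 and 0.0647), and both calls were lost under the replicate block (0.0753 and 0.0676) and with 1 subtracted from every count (0.175 and 0.135). Leaving out single line 50 libraries also ended them, with adjusted p-values of 0.0506 to 0.274.

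**Figure D4:**
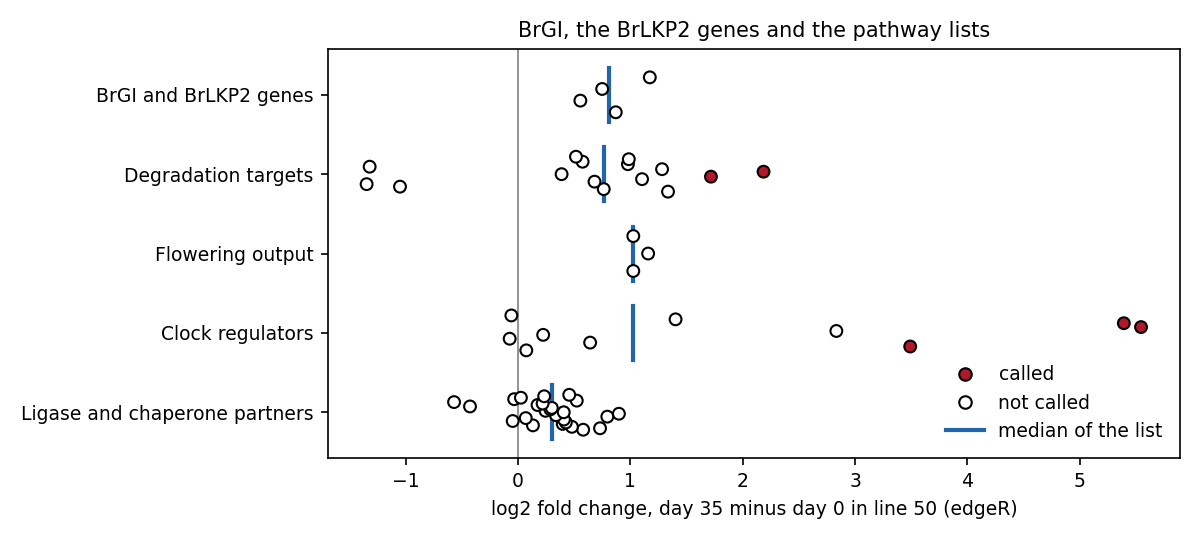
Log2 fold change of day 35 over day 0 in line 50 (horizontal axis, edgeR) for BrGI and the BrLKP2 genes and for the tested genes of 4 pathway lists. Each point is a gene, filled where called, and the blue line is the median of the list. The called genes are 2 degradation targets and 3 clock regulators, and the medians lie between 0.30 and 1.03.

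Over the 8 libraries, the genes most like each member were sought among 8003 genes whose normalized read counts averaged 500 or more. Pearson's r on log2 CPM describes likeness over libraries that share line, day and replicate number, and no p is given. BrGI was most like Bra031074, a thaumatin family gene (r = 0.992), ZFN1 (Bra040604, r = 0.988) and Bra006900 (r = 0.987). Bra038832 was most like Bra026023 (r = 0.986), again Bra031074 (r = 0.986) and PRR5 (Bra009768, r = 0.985). Bra038831 was most like MPK7 (Bra037234, r = 0.990), IBR3 (Bra029606, r = 0.987) and IDD11 (Bra021510, r = 0.982), and Bra038830 most like BTI1 (Bra010539, r = 0.987), Bra029773 (r = 0.984) and Bra020569 (r = 0.982).

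Like patterns did not mean like sizes. Bra031074 had a normalized read count of 11359 in line 4004 at day 35, against 981 at day 0, a far wider range than that of BrGI. ZFN1 had 949 at day 35, against 576 at day 0, a narrower one. Among the members, r was 0.984 between BrGI and Bra038832, 0.901 between BrGI and Bra038831 and 0.829 between BrGI and Bra038830. Within the BrLKP2 genes it was 0.962 between Bra038831 and Bra038830, 0.943 between Bra038832 and Bra038831 and 0.896 between Bra038832 and Bra038830.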

How the data were processed

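RNA of 8 libraries was measured by RNA-seq. The authors trimmed reads, mapped them to a Brassica rapa gene set with Bowtie2 and deposited raw counts per gene, and the sources used here do not name the counting program. The lowest deposited count was 1 in every library, so 1 appears to have been added. The deposited normalized read counts (a score) are the authors' raw counts divided by 1 DESeq factor per library and rounded. Deposited log2 ratio columns were not used. The members and gene lists were chosen with earlier results of these data known.

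Counts were tested with edgeR 4.0.16 (R 4.3.3), TMM scaling, filterByExpr (31191 of 38008 genes, all 4 members included) and 1 coefficient per group, with 4 residual degrees of freedom from line 50, and p-values adjusted over all genes. Standard errors were taken as the absolute log2 fold change over the square root of F. The test was checked on simulated data, which had less spread between libraries than the real counts and no libraries that stood apart. That check covers the code and does not measure error rates or power for these data. Levels of single libraries carry exact Poisson intervals and shares Wilson intervals, for counting error only. Alternatives were DESeq2 1.42.0, other scalings, no filter, 1 subtracted, a replicate block and leaving out libraries, and, chosen after seeing the data, no minimum fold. Deviations of same-numbered libraries of line 50 from their day means correlated at 0.446, 0.615 and 0.695, so the numbers were taken as pairs. Replicates 1 and 2 also correlated with each other's numbers (0.473 and 0.563), so these values do not show which of them pair. List genes were named if called in a comparison, otherwise the most read gene of each locus. Less read genes of LUX, TOC1, CDF1, CDF2 and CDF5 were added. The study's methods call the replicates biologically independent.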

Additional observations from a re-analysis of the deposited data

How the results depend on the processing

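The day difference in line 50 kept its sign in all 16 alternatives for each of the 4 members, with log2 fold changes of 0.77 to 1.1 for BrGI, 1.01 to 1.41 for Bra038832, 0.67 to 0.88 for Bra038831 and 0.46 to 0.66 for Bra038830. Bra038832 was called in 4 of the 16. Its adjusted p was 0.0388 with library totals, 0.0112 in DESeq2, 0.00679 with the replicate block and 0.000765 without replicate 3. In each of these settings 1 of the 4 members was called, beside 1029, 2954, 4876 and 6352 of all genes. Without replicate 1 or replicate 2, the adjusted p of the 4 members was 0.661 to 0.987 in edgeR. The number of members called was 0 to 1 on leaving out libraries.

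Of all genes, 2954 were called in line 50 by DESeq2 and 4876 with the replicate block, against 1224, and leaving out line 50 libraries gave 0 (without replicate 1 or 2) to 6352 (without replicate 3). For the lines at day 0 the count was 1564 in DESeq2, 277 with 1 subtracted and 2363 with the block, against 466, and 2 to 8712 on leaving out libraries. At day 35 it was 433, 47 and 297, against 139, and 0 to 5084. For the difference of responses it was 69 in DESeq2, against 0, and 0 to 2012. In each comparison the highest count came without replicate 3, and the cause was not tested. In the line comparisons that setting sets line 4004 libraries numbered 3 against line 50 libraries numbered 1 and 2.

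In the line comparison at day 0, BrGI turned to -0.23 and Bra038832 to -0.018 with the block, and leaving out libraries gave -0.069 to 0.22 for BrGI. The difference of responses of Bra038832 was -0.001 with library totals and -0.044 to 0.36 on leaving out libraries. In line 4004, library totals gave log2 ratios of 0.98 for BrGI, 0.50 for Bra038831 and 1.22 for Bra038832. Of the list genes, leaving out libraries gave day differences of -0.55 to 0.58 for ELF4 (Bra000165), -0.73 to 0.88 for ASK1 (Bra003735) and -0.27 to 0.12 for ELF3 (Bra034284).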
